A study of Rattus norvegicus with 72 samples.

Results

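The effect of hypergravity, a gravitational load above that of Earth, on gene expression in the liver of pregnant rats was examined as the difference between livers of pregnant rats kept in hypergravity (hyperG) and livers of pregnant rats kept at standard gravity (standardG). The samples were chosen by their group labels, which gave 5 hyperG arrays and 5 standardG arrays, 10 of the 72 arrays of the series. All 31042 probe sets of the deposited table entered the comparison. The series as a whole covers 3 tissues (liver, mammary gland, adipose tissue) at 2 stages, pregnancy and lactation, in hypergravity and at standard gravity, and a separate set of mammary glands with microgravity flight samples and their ground controls. Livers of lactating rats, 5 in hyperG and 5 in standardG, shared the statistical fit and served for the comparison between stages. Pregnant mammary gland and adipose tissue, again 5 and 5 arrays each, served for the comparison between tissues. Strain, age, day of pregnancy, the size of the load and its duration were not given in the sources used here, nor was the hour at which tissue was taken. The 5 arrays of a group carry different rat codes and were treated as separate animals. RNA came from whole liver tissue, so every value is a mixture of hepatocytes and other cells, and fewer cells of a type cannot be told apart from less RNA per cell.

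The liver of a pregnant rat supplies glucose, lipids and amino acids to the mother and the conceptuses. Its hepatocytes divide their work along the lobule: gluconeogenesis, urea synthesis and amino acid breakdown are strongest near the portal vein, and glutamine synthesis and much drug metabolism near the central vein. A circadian oscillator, in which CLOCK or NPAS2 pairs with BMAL1 and is held back by the PER, CRY and BHLHE proteins, drives daily rhythms in many of these pathways, and PAR bZIP factors such as DBP, TEF and HLF carry the rhythm to output genes.

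All values are log2 signals, so a difference of 1 is a doubling. Array medians of the 10 livers ran from 4.32 to 4.41, and a level under this is only an approximate one. The labelled tissue showed its defining genes: the 12 hepatocyte markers averaged 11.99 to 12.08 in hyperG livers and 12.07 to 12.15 in standardG livers, and 0 of them was called. One hyperG array, L55H, stood apart by milk protein genes. Csn2, the gene of beta-casein, was at 3.57, 7.15, 2.81, 3.15 and 2.93 on the hyperG arrays L59H, L55H, L50H, L56H and L60H, against 4.14, 3.91, 3.15, 3.19 and 5.44 on the standardG arrays L52S, L42S, L44S, L57S and L48S. The mean of the 10 mammary epithelium markers was 4.77 on L55H and 3.21 to 3.24 on the other hyperG arrays, against 3.34 to 4.01 in standardG livers, the highest being L48S. The milk genes Wap, Csn3 and Csn1s1 stood at 6.73, 5.85 and 5.45 on L55H. Markers of the other cell types showed 0 called members. At an unadjusted p under 0.05, against 5.58% of all genes lower and 3.12% higher, 3 of 13 Kupffer cell and macrophage markers were lower and 1 higher (11 of 13 below 0, median -0.20), and 3 of 15 lymphocyte markers were lower (median -0.07). Of 8 cholangiocyte markers 0 passed (median -0.20). Of 10 adipocyte markers 0 passed, with 9 below 0 (median -0.21). Their mean level was dim, at 4.50 to 4.77 in hyperG livers and 4.77 to 5.33 in standardG livers. Of 6 erythroid and blood markers 1 was lower, with 5 below 0 (median -0.16), and of 7 neutrophil markers 0 passed (median 0.05). The mean level of the macrophage markers was 8.14 to 8.39 in hyperG livers and 8.19 to 8.59 in standardG livers, and that of the lymphocyte markers 4.43 to 4.74 in hyperG livers and 4.54 to 4.85 in standardG livers. Their part in the lower lists described further on was not tested. In a principal component analysis of the 10 livers the first component held 20.1% of the variance, and L55H lay at 8.03 on it, among the standardG arrays (-0.68 to 43.8), while the other hyperG arrays lay between -31.5 and -20.7. The part of these milk transcripts in any result was not tested, and the number of called probe sets without L55H is given beside the main count. Per-array values below follow the array order just given.

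Hypergravity changed few genes strongly enough to be called in the pregnant liver. At a Benjamini-Hochberg adjusted p under 0.05 (limma, 20 liver arrays), 32 of 31042 probe sets were called (0.103%), 18 of them higher in hyperG (0.058%) and 14 lower (0.0451%), and 2507 passed an unadjusted p of 0.05. Of the 32, the 2 groups of arrays did not overlap for 30, against 2.07% of all probe sets. The 23 called probe sets with a gene symbol stood for 21 genes, and for 19 genes (0.134% of 14217) the called probe set was the gene's brightest one. The median log2 fold change over all genes was -0.04. Without L55H 35 probe sets were called, 22 of them among the 32. The count was 6 without the hyperG array L50H, 6 without the standardG array L48S, 10 without the hyperG array L56H and 20 without the standardG array L44S, and 51 without the lactating standardG array L216S, which enters only the estimate of spread.

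Tbx3, a T-box transcription factor that acts mainly as a repressor (chr12:42540378-42555490 on GRCr8), had the smallest p of all probe sets. Its signals were 10.39, 10.72, 10.85, 10.61 and 10.51 in hyperG livers and 9.48, 9.43, 8.69, 9.29 and 8.80 in standardG livers. The lowest hyperG liver (10.39) lay well above the highest standardG liver (9.48). Tbx3 rose by 1.48 ± 0.16 (SE), or 2.79-fold, with an adjusted p of 3.07e-04, and it was called under every alternative setting and without any 1 array. Its 3 other probe sets averaged under 4 and were not called, and 1 of them had the opposite sign.

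Sstr1, a receptor for the peptide hormone somatostatin (chr6:81567237-81571759), read 6.27, 5.29, 5.57, 4.68 and 5.91 in hyperG livers, against 3.39, 4.29, 3.31, 3.30 and 2.77 in standardG livers. All standardG values lay below the array medians, and all hyperG values lay above them. The increase was 2.13 ± 0.31 (adjusted p = 0.014). Its 2 other probe sets were dimmer and not called (-0.26 and 0.03), so the call rests on 1 of 3 probe sets. Epha4, a receptor tyrosine kinase for ephrins (chr9:86263982-86406744), gave 6.68, 5.91, 6.56, 6.63 and 6.35 in hyperG livers and 4.52, 4.79, 4.89, 5.06 and 3.69 in standardG livers, with no overlap. It rose by 1.84 ± 0.29 (adjusted p = 0.0145), and its 3 dimmer probe sets had the same sign without being called. Among single arrays left out, only L50H ended the call (adjusted p = 0.057).

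Svil, the gene of supervillin, which ties actin filaments to the plasma membrane (chr17:57343910-57539508), was measured by 5 probe sets, all of them without overlap between the groups. Its brightest one read 8.66, 8.97, 9.31, 9.08 and 8.60 in hyperG livers and 7.38, 8.08, 7.13, 7.65 and 7.10 in standardG livers, a rise of 1.46 ± 0.23 (adjusted p = 0.0146), a call lost without L50H, L56H or L48S (adjusted p = 0.057, 0.0501 and 0.0657). Another probe set was called with a rise of 1.45, and the third stood just outside the threshold with a difference of 3.07 (adjusted p = 0.0529). Atp2b2, a calcium pump of the plasma membrane (chr4:148450207-148763653), had 6.73, 7.45, 7.80, 7.85 and 6.94 in hyperG livers and 5.21, 6.24, 5.82, 4.37 and 5.51 in standardG livers, and rose by 1.92 ± 0.34 (adjusted p = 0.0207), while its dimmer probe set differed by -0.018. The Atp2b2 call was lost without L50H, L56H, L52S or L48S (adjusted p 0.0541 to 0.098). Slc25a45, a member of the mitochondrial carrier family (chr1:212595536-212603786), rose by 1.30 ± 0.20 (adjusted p = 0.0145, 0.0611 without L48S), with 6.17 to 7.52 in hyperG livers and 5.28 to 5.83 in standardG livers. Nos1, the neuronal nitric oxide synthase (chr12:44276011-44456371), was dim at 4.92, 4.50, 5.16, 5.20 and 4.84 in hyperG livers and dimmer at 3.25, 4.01, 4.21, 3.48 and 3.21 in standardG livers, and rose by 1.29 ± 0.23 (adjusted p = 0.0207). Its call was lost without the same 4 arrays as that of Atp2b2 (adjusted p 0.0568 to 0.0952).

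Some further higher genes were called by probe sets outside the naming rule and were chosen after their values were seen. Cldn1, the tight junction protein claudin, was called on its middle probe set, with 7.45, 7.54, 8.47, 7.84 and 7.05 in hyperG livers and 6.05, 3.80, 5.18, 3.41 and 4.61 in standardG livers. This was a rise of 3.06 ± 0.52 (adjusted p = 0.0206), while the brightest probe set of Cldn1 differed by 1.32 (adjusted p = 0.185) and the dimmest by 1.88 (adjusted p = 0.123). Fdx1, a ferredoxin that passes electrons to mitochondrial cytochromes P450, was called on its dimmer probe set with 0.95 ± 0.19 (adjusted p = 0.0489), and its brighter one differed by 0.69 (adjusted p = 0.326). Crip2, a LIM domain protein, rose by 0.80 ± 0.14 (adjusted p = 0.0277), although its lowest hyperG value of 8.25 lay under the highest standardG value of 8.30.

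**Figure D1:**
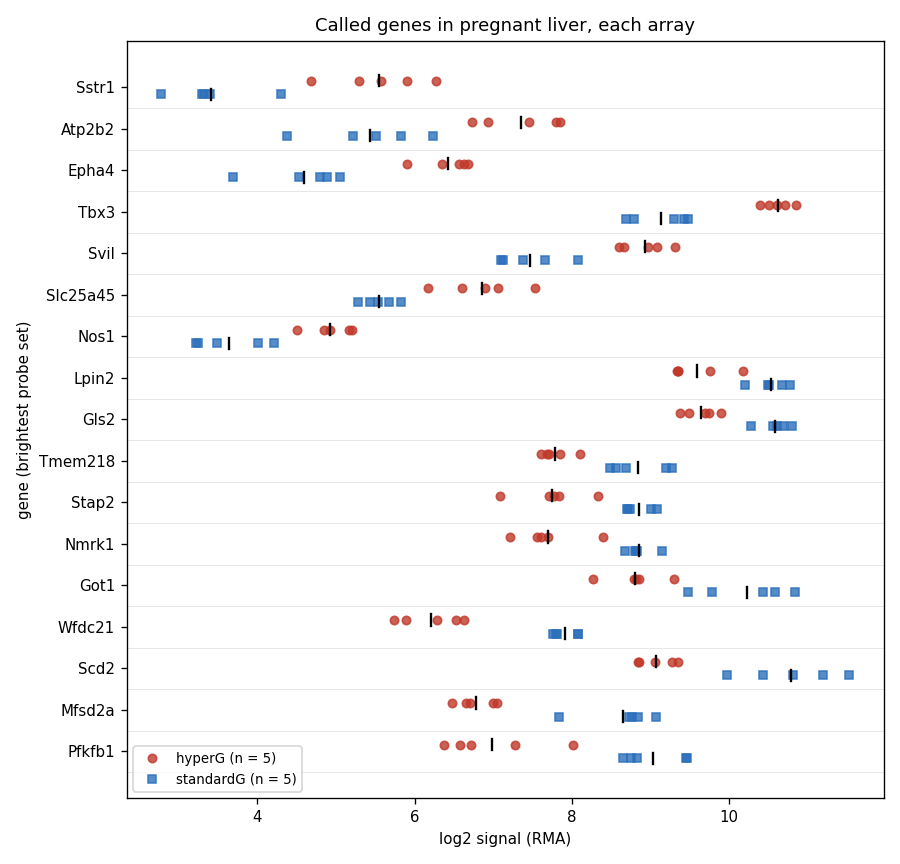
Log2 signal (x axis) of the 17 genes named among the called ones, with 5 hyperG livers (circles, upper row of each gene) and 5 standardG livers (squares, lower row); black ticks are group means. The naming rule took only genes whose circles and squares do not overlap, with Sstr1 at the top (difference 2.13) and Pfkfb1 at the bottom (difference -2.04).

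Pfkfb1, the liver form of the enzyme that makes and breaks the fructose bisphosphate that drives glycolysis (chrX:22936038-22989691), read 6.71, 7.28, 6.37, 6.57 and 8.01 in hyperG livers and 8.65, 8.83, 8.75, 9.46 and 9.45 in standardG livers. It fell by 2.04 (SE 0.34, adjusted p = 0.0202), and the hyperG liver nearest to the standardG range was L60H. The call was lost without L50H, L56H or L48S (adjusted p = 0.0735, 0.0791 and 0.0795). Got1, the cytosolic aspartate aminotransferase (chr1:252306541-252337622), read 8.86, 9.30, 8.79, 8.27 and 8.82 in hyperG livers and 9.48, 9.78, 10.59, 10.43 and 10.84 in standardG livers. The groups did not overlap and the difference was -1.41 ± 0.26 (adjusted p = 0.0364), a call lost on leaving out any 1 of 7 of the 10 arrays (adjusted p 0.0575 to 0.147, all but L55H, L52S and L42S). Gls2, the liver glutaminase that releases ammonia from glutamine (chr7:1201757-1218014), read 9.74, 9.90, 9.69, 9.38 and 9.49 in hyperG livers, against 10.69, 10.28, 10.56, 10.80 and 10.61 in standardG livers. Its fall of 0.95 was small but even across animals (SE 0.15, adjusted p = 0.0145), and among single arrays left out only L48S ended the call (adjusted p = 0.0519).

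Scd2, a fatty acid desaturase of the stearoyl-CoA family (chr1:253118377-253131436), read 9.06, 8.84, 9.28, 8.85 and 9.34 in hyperG livers and 11.20, 10.81, 11.53, 10.43 and 9.97 in standardG livers. It differed by -1.72 ± 0.31 on its brightest probe set (adjusted p = 0.0261) and by -2.30 on another called one, and its 2 dimmest probe sets were not called (-0.11 and -0.15). On the brightest one the call was lost on leaving out L55H, L50H, L56H, L52S or L44S (adjusted p 0.0654 to 0.0982). Mfsd2a, a transporter of lysophospholipids (chr5:140510933-140525828), read 6.48, 7.002, 6.70, 7.04 and 6.66 in hyperG livers and 8.73, 7.83, 8.84, 8.77 and 9.07 in standardG livers. The difference of -1.87 ± 0.30 was called (adjusted p = 0.0158), and the standardG array L42S was nearest to the hyperG range. It was lost without L50H or L48S (adjusted p = 0.057 and 0.0658). Lpin2, a phosphatidate phosphatase that supplies diacylglycerol for triglyceride (chr9:118529988-118604796), fell by 0.94 (adjusted p = 0.0414), with 9.34 to 10.17 in hyperG livers and 10.20 to 10.77 in standardG livers, and its call held on leaving out L59H, L60H or L57S but not any other of the 10 arrays (adjusted p 0.0615 to 0.164).

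Wfdc21, a secreted protein with a whey acidic protein domain (chr10:69125336-69131205), read 5.89, 5.74, 6.63, 6.52 and 6.28 in hyperG livers and 8.08, 8.08, 7.79, 7.76 and 7.82 in standardG livers, with a difference of -1.69 ± 0.28 (adjusted p = 0.0202, 0.0657 without L48S). Nmrk1, a kinase that turns nicotinamide riboside into a precursor of NAD (chr1:225475975-225503414), differed by -1.16 ± 0.22 (adjusted p = 0.0371). Its call was the least stable of the 17 genes and held on leaving out 1 of the 10 arrays, L59H (adjusted p 0.0525 to 0.148 without the others). Stap2, an adaptor protein of cytokine signalling (chr9:915546-924604), differed by -1.11 ± 0.19 (adjusted p = 0.0206), with 7.09 to 8.33 in hyperG livers and 8.71 to 9.08 in standardG livers, and its call was lost without L50H, L56H or L48S (adjusted p = 0.0627, 0.0663 and 0.0795). Tmem218, a transmembrane protein of the ciliary transition zone (chr8:45113368-45128739), read 8.10, 7.60, 7.71, 7.69 and 7.84 in hyperG livers and 9.27, 8.48, 8.56, 9.20 and 8.68 in standardG livers. It fell by 1.05 (adjusted p = 0.014) and, with Tbx3, kept its call under every alternative tried and without any 1 array. Sstr1 kept its call wherever it was tested, but its mean of 3.86 lies under the filter on dim probe sets, which leaves it out. Rasd2, a small GTPase, fell by 1.83 (adjusted p = 0.0414), but its groups overlapped between the hyperG array L55H at 4.57 and the standardG array L57S at 4.50, and it was named after its values were seen.

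The other 9 called probe sets carried no single gene symbol. Of these 7 rose, with the largest rises at 1.88 and 1.60, and 2 fell, by 1.45 and 1.11. Just outside the threshold stood Stat2, a transcription factor of the interferon response (difference -0.64, adjusted p = 0.0512), Acsm2, a medium-chain acyl-CoA synthetase (2.19, adjusted p = 0.0529), and Bhlhe41 (-2.76, adjusted p = 0.0529). At an adjusted p under 0.1 70 probe sets passed, 43 higher and 27 lower.

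Gene lists for 26 liver functions were described by counts and medians. Over all 14217 genes, 3.12% were higher and 5.58% lower at an unadjusted p under 0.05, and 8301 genes had a difference below 0. Counts in the lists are read against these shares. Clock output genes, clock genes, immediate early genes, glucocorticoid-responsive genes and cell cycle genes had the lowest medians. Proteasome, ribosome, chaperone and unfolded protein response genes had the highest ones. Several lists share members, among them Cdkn1a, Sds, Pck1 and Per1. List members described beyond the 2 to 4 per list that the naming rule gives, and beyond the fixed liver and clock genes, were chosen after their values were seen.

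**Figure D2:**
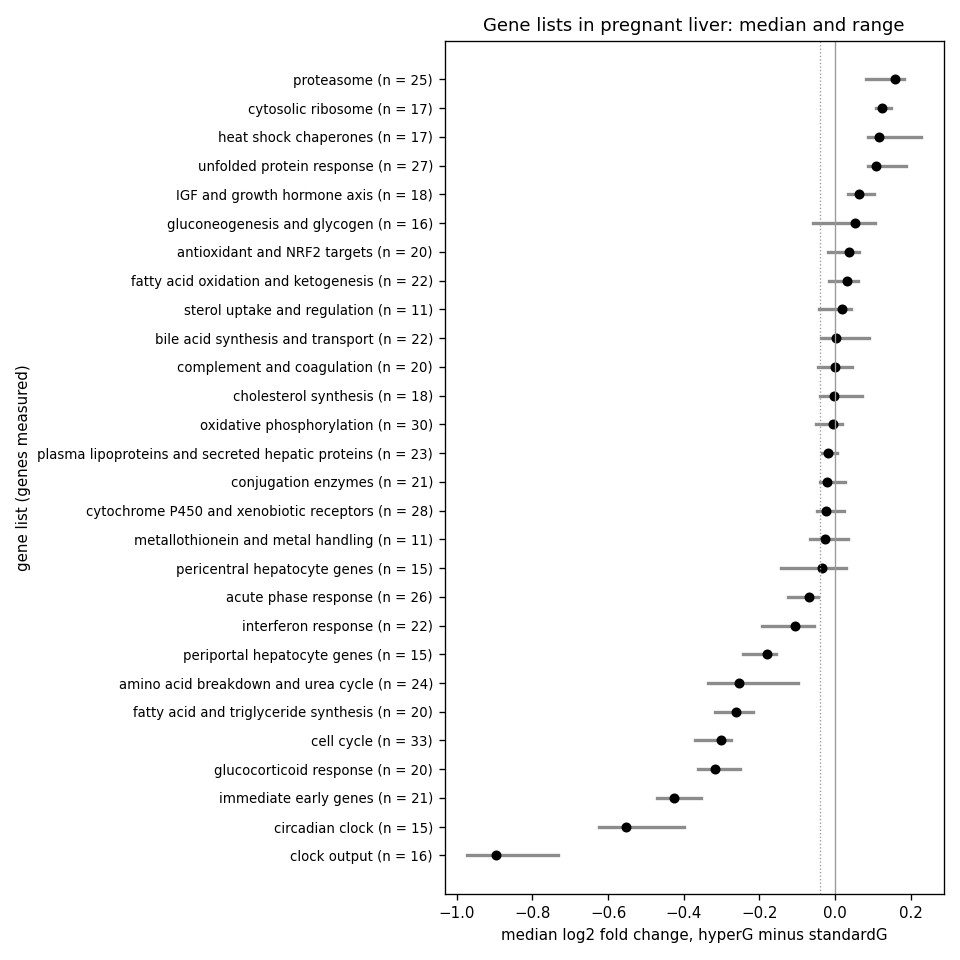
Median log2 fold change, hyperG minus standardG (x axis), of each gene list in pregnant liver (y axis, with the number of genes measured). Dots are the main fit and bars span the medians over 15 other settings; the dotted line is the median of all genes (-0.04). Clock output lies lowest at -0.90 and the proteasome highest at 0.16.

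Among clock genes, Clock and Npas2 had higher and most repressors lower values in hyperG, and 0 of the 15 measured genes was called. At an unadjusted p under 0.05, 2 were higher and 5 lower, and the median was -0.55 (-0.62 to -0.40 over 15 other settings, single arrays left out among them). Bhlhe41, a repressor that competes with CLOCK and BMAL1 at their DNA element (chr4:180565003-180569415), had the lowest log2 fold change of all 14217 genes. It read 4.41, 3.54, 2.90, 4.01 and 4.84 in hyperG livers, 3 of them under the array medians, and 7.45, 6.01, 7.44, 5.83 and 6.78 in standardG livers, with no overlap. The difference was -2.76 ± 0.55 (adjusted p = 0.0529). Clock, the transcriptional activator, read 7.92, 7.91, 8.63, 8.37 and 7.65 in hyperG livers and 6.99, 7.31, 7.19, 7.55 and 7.21 in standardG livers, also without overlap (0.85 ± 0.20, adjusted p = 0.117). Npas2, which can stand in for CLOCK, read 6.30, 8.59, 9.42, 8.84 and 7.39 in hyperG livers and 4.56, 7.09, 7.14, 4.61 and 5.72 in standardG livers, and L59H lay within the standardG range (2.28 ± 0.70, adjusted p = 0.307). Bmal1, their partner, was dim and uneven, with 4.09, 4.40, 6.55, 5.42 and 3.88 in hyperG livers and 4.002, 4.01, 3.63, 3.33 and 3.68 in standardG livers. Its 2 high values were those of L50H and L56H.

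Of the repressors, Per1 read 4.72, 4.67, 4.19, 4.46 and 4.67 in hyperG livers and 5.45, 4.67, 4.77, 5.53 and 5.85 in standardG livers (-0.71, adjusted p = 0.47). Cry2 had a difference of -0.71 ± 0.17 (adjusted p = 0.123). Per2 overlapped between the groups (-0.52, adjusted p = 0.814), and its other probe set had the opposite sign. Nr1d1, the nuclear receptor REV-ERB alpha, read 5.95, 6.99, 4.79, 6.45 and 7.13 in hyperG livers and 7.21, 7.16, 7.34, 6.54 and 7.14 in standardG livers (-0.82, adjusted p = 0.726). All standardG livers but L57S lay above every hyperG liver, and the hyperG livers spread widely.

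Clock output genes were lower in hyperG in 15 of 16 cases, with a median of -0.90 (-0.97 to -0.73 over the other settings), and 0 was called. At an unadjusted p under 0.05, 8 were lower and 1 higher. Dbp, which carries the rhythm to many liver enzymes, was nearly constant in standardG livers at 9.48, 9.45, 9.30, 9.35 and 9.46, and ranged widely in hyperG livers at 8.47, 8.27, 6.09, 7.41 and 9.05. All hyperG values lay below all standardG values, and L50H was lowest (-1.55, adjusted p = 0.56). Hlf, of the same family, read 10.57, 10.05, 10.09, 10.08 and 10.12 in hyperG livers and 11.30, 10.97, 11.19, 11.35 and 11.24 in standardG livers (-1.02 ± 0.24, adjusted p = 0.122). Tef, the remaining member, read 9.97, 8.71, 8.80, 8.98 and 9.61 in hyperG livers and 10.83, 9.92, 10.10, 10.28 and 10.02 in standardG livers, and here L59H lay just within the standardG range (-1.01, adjusted p = 0.333). Usp2, a deubiquitinase with a strong daily rhythm, read 9.73, 7.54, 7.88, 8.19 and 9.62 in hyperG livers and 10.03, 9.89, 10.10, 10.67 and 10.07 in standardG livers, without overlap (-1.56, adjusted p = 0.34). Wee1, a kinase that delays mitosis, differed by -1.06 (adjusted p = 0.343). The exception was Cdkn1a, the cell cycle inhibitor p21, which also stands in the glucocorticoid and cell cycle lists. It read 6.26, 7.96, 9.22, 7.32 and 5.82 in hyperG livers and 4.88, 4.62, 3.96, 4.41 and 5.05 in standardG livers, higher in each hyperG liver, highest on L50H (2.73 ± 0.74, adjusted p = 0.211). The hour of sampling was not given in the sources used here, so an earlier or later phase and another level of these genes cannot be told apart.

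**Figure D3:**
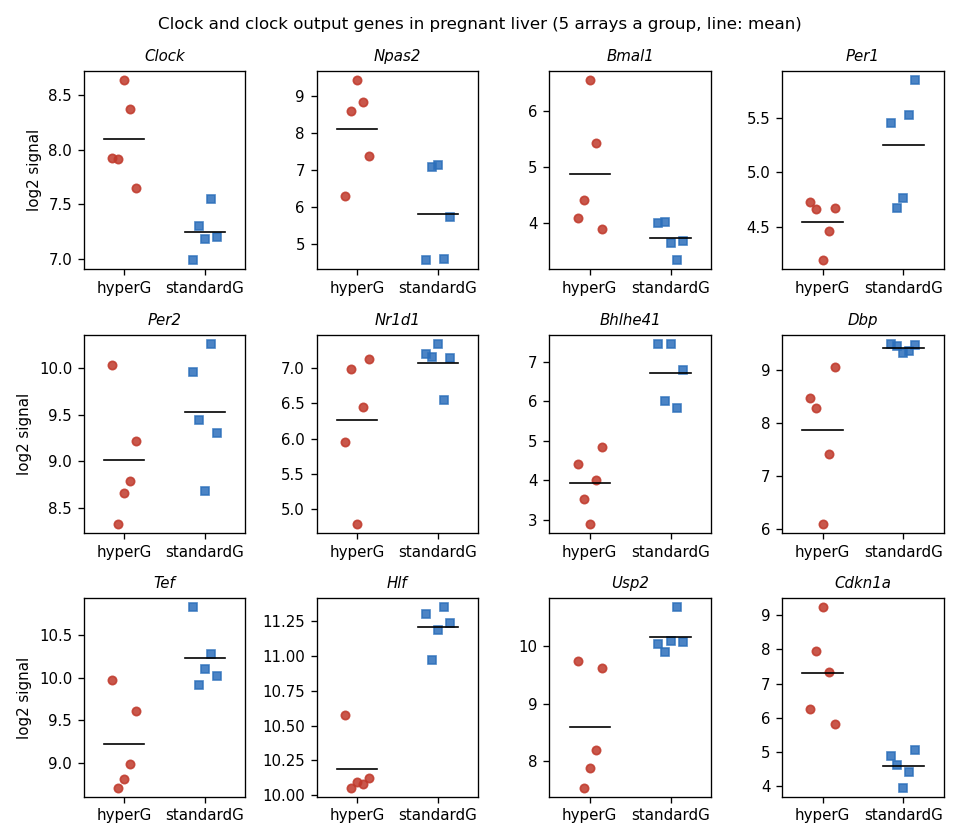
Log2 signal (y axis, own scale in each panel) of 12 clock and clock output genes, with 5 hyperG livers (circles, left) and 5 standardG livers (squares, right); lines are group means. Clock, Bhlhe41, Dbp, Hlf, Usp2 and Cdkn1a show no overlap, and the hyperG livers spread more than the standardG livers for Dbp and Bmal1.

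Promoters of the clock genes were searched for the E-box CACGTG, the element of CLOCK and BMAL1. The D-box forms TTATGTAA and TTACGTAA, the element of DBP, TEF and HLF, were searched too. Both strands of the RefSeq promoter window of each gene on GRCr8 were used. Each window surrounds 1 start of its gene, which need not be the outermost one. The E-box was present in 2 of 13 clock promoters and 1 of 12 clock output promoters that had a window, against 6.65% of 27457 promoters. It was also present in 4 of 15 immediate early gene promoters, those of Klf6, Dusp1, Gadd45b and Gadd45g. The D-box TTATGTAA was present in 1 of 13 clock promoters (Per2), against 0.881% of all, and TTACGTAA in 0 of either list, against 0.127% of all. Of the genes described above, Bhlhe41 and Tef carried an E-box, and their windows are shown because both genes belong to the lists with the lowest medians. Among the called genes, 14 of 17 had a window, 0 held an E-box, and Nos1 held the cAMP element TGACGTCA (1.91% of all promoters), so its window is shown too. The windows of Nos1, Got1 and Svil lie within the spans of their genes, so the start used for them is an internal one. For Nos1 the span is chr12:44276011-44456371, on the minus strand. Capitals mark the E-box in Bhlhe41 (chr4:180569306-180569605, minus strand, element at position -48 from the start used) and Tef (chr7:115206577-115206876, plus strand, position -198). They also mark the cAMP element in Nos1 (chr12:44371788-44372087, minus strand, position -9).
Bhlhe41: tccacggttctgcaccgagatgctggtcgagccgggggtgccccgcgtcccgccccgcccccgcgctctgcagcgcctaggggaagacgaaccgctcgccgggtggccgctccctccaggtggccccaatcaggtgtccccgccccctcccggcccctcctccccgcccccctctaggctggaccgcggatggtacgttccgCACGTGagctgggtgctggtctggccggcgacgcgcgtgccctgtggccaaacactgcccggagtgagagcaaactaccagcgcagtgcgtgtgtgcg
Tef: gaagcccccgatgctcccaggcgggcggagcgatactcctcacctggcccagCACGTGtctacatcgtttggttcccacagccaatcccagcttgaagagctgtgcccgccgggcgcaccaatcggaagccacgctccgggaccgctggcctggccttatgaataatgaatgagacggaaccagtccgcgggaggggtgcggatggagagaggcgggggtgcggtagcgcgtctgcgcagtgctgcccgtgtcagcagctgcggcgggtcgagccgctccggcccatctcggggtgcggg
Nos1: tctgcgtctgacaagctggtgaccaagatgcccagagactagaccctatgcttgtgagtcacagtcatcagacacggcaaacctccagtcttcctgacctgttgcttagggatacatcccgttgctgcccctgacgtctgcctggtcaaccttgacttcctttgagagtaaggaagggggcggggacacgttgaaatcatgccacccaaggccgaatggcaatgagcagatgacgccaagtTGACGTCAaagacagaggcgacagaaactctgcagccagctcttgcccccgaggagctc

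The other motifs were searched in the same windows. The nuclear receptor element AGGTCA was present in 5 of 19 promoters of amino acid breakdown genes (15.7% of all promoters), the glucocorticoid element AGAACA in 2 of 19 (20.1%), and the antioxidant element TGACNNNGC in 3 of 19 (12.2%). In the called genes TGACNNNGC was present in 4 of 14, among them Gls2 and Got1, and AGGTCA in 2 of 14. The sterol element TCACNCCAC was in 0 of 14 called promoters (1.13% of all). The cAMP element was in 3 of 15 immediate early gene promoters (Jund, Ier2 and Dusp1). A match describes letters in the window only.

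Immediate early genes, which respond within minutes to growth and stress signals, were lower in hyperG in 18 of 21 cases (median -0.43), and 0 was called. At an unadjusted p under 0.05, 7 were lower and 0 higher. Fos, a subunit of the AP-1 factor, read 5.42, 5.21, 6.45, 4.91 and 5.40 in hyperG livers and 7.40, 6.60, 7.99, 7.37 and 7.42 in standardG livers, without overlap (-1.88 ± 0.42, adjusted p = 0.0981). Its other, dim probe set was not called and had the opposite sign. Zfp36, a protein that speeds the decay of cytokine mRNAs, read 8.93, 8.38, 8.55, 8.20 and 8.61 in hyperG livers and 9.83, 9.59, 9.06, 9.59 and 9.46 in standardG livers, again without overlap (-0.97 ± 0.22, adjusted p = 0.102). Egr2 was dim in both groups (3.74 ± 0.56 in hyperG and 5.20 ± 0.47 in standardG livers, SD, n = 5 each, adjusted p = 0.262), and Egr1, which was bright, differed by -0.52 (adjusted p = 0.658).

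The glucocorticoid-responsive list had 18 of 20 members lower (median -0.32), 7 of them at an unadjusted p under 0.05 and 1 higher, with 0 called. Beside Sds and Cdkn1a it holds Tsc22d3, a classical glucocorticoid target (-0.46, adjusted p = 0.513), Klf9 (-0.51, adjusted p = 0.545) and Tat, the tyrosine aminotransferase (-0.49, adjusted p = 0.611). Serpina6, the plasma carrier of corticosterone, differed by -0.40 (adjusted p = 0.467), and the receptor gene Nr3c1 by -0.30 (adjusted p = 0.706).

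Cell cycle genes were lower in 29 of 33 cases, against 8301 of all 14217 genes (median -0.30), 10 at an unadjusted p under 0.05, and 0 was called. Most of the list was dim, and 8 of the 33 averaged 5 or more over the liver arrays. The list mean was 4.33 to 4.53 in hyperG livers and 4.62 to 4.87 in standardG livers, near the array medians. Ccnd1, the cyclin that opens the first gap phase, read 8.05, 8.42, 8.57, 8.26 and 8.02 in hyperG livers and 9.63, 9.24, 9.52, 8.70 and 9.32 in standardG livers, without overlap (-1.02 ± 0.29, adjusted p = 0.262). Ccne1, the next cyclin, read 4.54, 4.38, 4.57, 5.02 and 5.45 in hyperG livers and 6.84, 5.87, 6.08, 5.34 and 6.17 in standardG livers, where L60H lay above the lowest standardG liver (-1.27 ± 0.29, adjusted p = 0.106). Top2a, the topoisomerase of dividing cells, was 4.37 ± 0.46 in hyperG livers and 5.77 ± 0.27 in standardG livers (adjusted p = 0.585). The replication licensing genes Mcm3 (-0.71), Mcm6 (-0.72) and Mcm5 (-0.60) had lower values too, at dim levels.

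Among 24 genes of amino acid breakdown and the urea cycle, Gls2 and Got1 fell and 0 rose. The median was -0.25, with 10 lower and 2 higher at an unadjusted p under 0.05, and it ran from -0.34 to -0.099 over the other settings, the highest without L57S. Sds, the serine dehydratase that feeds serine into gluconeogenesis, read 7.003, 6.18, 5.24, 4.68 and 7.67 in hyperG livers and 7.99, 8.002, 8.93, 9.58 and 9.995 in standardG livers. The groups did not overlap but spread widely within themselves (-2.75 ± 0.58, adjusted p = 0.0745). Ass1, the argininosuccinate synthase of the urea cycle, read 8.58, 8.32, 8.34, 8.50 and 8.43 in hyperG livers and 8.999, 9.07, 9.53, 10.19 and 9.78 in standardG livers, without overlap (-1.08 ± 0.22, adjusted p = 0.0643). Asl, the next enzyme of the cycle, differed by -0.74 (adjusted p = 0.333) and Arg1, the arginase, by -0.31 (adjusted p = 0.528), while Cps1, the entry enzyme, differed by -0.066 (adjusted p = 0.946). Bhmt, which methylates homocysteine with betaine, differed by -1.01 ± 0.27 (adjusted p = 0.201). On the other side stood Cth, the gamma-lyase that makes cysteine (0.87 ± 0.22, adjusted p = 0.168), and Hal, the histidine ammonia-lyase (0.45, adjusted p = 0.606).

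In the list of gluconeogenesis and glycogen genes Pfkfb1 was the 1 called member of 16, 5 were lower and 2 higher at an unadjusted p under 0.05, and the median was 0.05. Gys2, the liver glycogen synthase, read 9.54, 9.21, 8.97, 8.86 and 9.78 in hyperG livers and 10.73, 9.73, 10.45, 10.19 and 10.74 in standardG livers, with L60H just above the lowest standardG liver (-1.09 ± 0.23, adjusted p = 0.0745). Slc37a4, which carries glucose phosphate into the endoplasmic reticulum, differed by -0.68 ± 0.16 (adjusted p = 0.11). Pck1, the cytosolic enzyme that commits carbon to glucose synthesis, read 10.48, 10.50, 10.28, 10.12 and 10.05 in hyperG livers and 10.69, 10.27, 11.39, 11.20 and 11.77 in standardG livers, with an overlap through L42S (-0.78, adjusted p = 0.346). Gckr, the regulator of glucokinase, differed by 0.97 (adjusted p = 0.201), and Irs1, an insulin receptor substrate, by 0.74 without overlap (adjusted p = 0.245).

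Lists for both lobular zones were added after values had been seen. Of 15 periportal genes, 7 were lower and 2 higher at an unadjusted p under 0.05 (median -0.18). Their mean per array was 9.89 to 10.09 in hyperG livers and 10.21 to 10.60 in standardG livers, without overlap. The list holds genes already seen to be lower, such as Gls2, Sds and Ass1, so this lack of overlap is no test of the zone. Gls2, Sds, Ass1, Asl, Pck1 and Arg1 of this list have been described, and Cyp2f4, a cytochrome P450 of the same zone, had the opposite direction with 7.38 to 7.57 in hyperG livers and 6.07 to 7.12 in standardG livers (0.83 ± 0.18, adjusted p = 0.0801). Of 15 pericentral genes, 3 were lower and 2 higher (median -0.03), among them Tbx3 as the called member. The mean of the pericentral genes per array was 8.81 to 8.99 in hyperG livers and 8.74 to 9.07 in standardG livers. Glul, the glutamine synthetase of the last rows of cells, differed by 0.071 (adjusted p = 0.938) and Cyp2e1 by -0.22 (adjusted p = 0.685).

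Fatty acid and triglyceride synthesis genes were lower in 16 of 20 cases (median -0.26), 4 at an unadjusted p under 0.05, and 0 was called. Thrsp, a lipogenic nuclear protein, read 12.02, 12.09, 11.50, 12.02 and 12.04 in hyperG livers and 12.21, 12.58, 12.42, 12.45 and 12.31 in standardG livers (-0.46, adjusted p = 0.28). Scd, the main liver desaturase, was 10.39 ± 0.70 in hyperG livers and 11.71 ± 0.37 in standardG livers, without overlap (-1.31, adjusted p = 0.551), and Lpin1 differed by -1.10 (adjusted p = 0.333). Fasn, the fatty acid synthase, differed by -0.13 (adjusted p = 0.966) and its regulator Srebf1 by -0.11 (adjusted p = 0.98). Scd2, the called desaturase, and Lpin2, also called, are described above and stand outside this list. Probes for Scd and Scd2 could share signal, as the genes are close in sequence.

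Fatty acid oxidation and ketogenesis genes had a median of 0.03, with 4 of 22 higher and 0 lower at an unadjusted p under 0.05 and 0 called. Fgf21, a hormone the liver secretes in fasting and stress, read 5.04, 7.57, 6.79, 7.19 and 7.04 in hyperG livers and 4.73, 5.17, 5.08, 3.99 and 4.64 in standardG livers, and L59H overlapped the standardG range (2.01 ± 0.49, adjusted p = 0.144). Vnn1, a pantetheinase induced by the fatty acid receptor PPAR alpha, read 9.78, 9.90, 9.91, 9.57 and 9.88 in hyperG livers and 8.77, 8.48, 8.45, 7.09 and 8.68 in standardG livers, without overlap (1.52 ± 0.45, adjusted p = 0.288). Acot1, a cytosolic acyl-CoA thioesterase with close paralogs, differed by 1.61 (adjusted p = 0.222). The core enzymes were not called: Cpt1a, the carnitine palmitoyltransferase of entry into mitochondria, differed by 0.087 (adjusted p = 0.972), and Pdk4, the kinase that shuts pyruvate dehydrogenase, by -0.36 (adjusted p = 0.926).

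Genes of protein folding and turnover leaned towards higher values, with 0 called in each list. For chaperones, 4 of 17 were higher and 0 lower at an unadjusted p under 0.05 (median 0.12). Cryab, a small heat shock protein, read 8.16, 6.62, 7.58, 7.19 and 7.39 in hyperG livers and 6.03, 6.18, 5.75, 6.28 and 4.92 in standardG livers, without overlap (1.55 ± 0.32, adjusted p = 0.0702), and Hspb1, another one, differed by 1.11 (adjusted p = 0.195). In the unfolded protein response, 5 of 27 were higher and 2 lower (median 0.11). Pdia4, an endoplasmic reticulum disulfide isomerase, read 9.22, 9.59, 9.52, 9.47 and 9.85 in hyperG livers and 8.79, 9.03, 8.71, 8.59 and 8.98 in standardG livers (0.71 ± 0.16, adjusted p = 0.105), and Atf4, the factor of the integrated stress response, differed by 0.44 (adjusted p = 0.215) with its target Asns, the asparagine synthetase, at 1.19 (adjusted p = 0.292). For the proteasome, 5 of 25 were higher and 0 lower (median 0.16), led by Psmb1 (0.31, adjusted p = 0.406) and Psmb3 (0.51, adjusted p = 0.491). All 17 measured ribosomal protein genes had positive differences, of at most 0.25 (median 0.12), and 1 passed an unadjusted p of 0.05.

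In the following lists of other liver functions 0 genes were called. Cholesterol synthesis had 0 of 18 genes past an unadjusted p of 0.05 in either direction (median 0.00), and Ggps1 and Mvk, which had the smallest p, differed by 0.14 and -0.21 (adjusted p = 0.832 and 0.898). Sterol uptake genes had 0 of 11, with Stard4 at -0.42 and Srebf2 at 0.22. Cyp7a1, the rate-limiting enzyme of bile acid synthesis, read 11.51 ± 0.16 in hyperG livers and 11.50 ± 0.30 in standardG livers (adjusted p = 0.996), and 2 of 22 bile acid genes were lower at an unadjusted p under 0.05, Abcc2 (-0.34) and Cyp27a1 (-0.42). Cytochrome P450 genes and xenobiotic receptors had 3 higher and 2 lower of 28, with the pregnane receptor Nr1i2 at -0.61 and Cyp3a9 at 0.49. Conjugation enzymes had 4 higher and 0 lower of 21, against 3.12% of all genes higher (median -0.02), with Gstm1 at 0.39 and Gstt2 at 0.40. Antioxidant genes had 2 higher of 20, Nfe2l2 (0.60) and Txnrd1 (0.40). Adjusted p-values of these genes lay at 0.307 or above.

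Acute phase genes had 5 lower and 1 higher of 26 (median -0.07), among them Orm1, the acid glycoprotein (-0.65, adjusted p = 0.133), and Il1rn, the antagonist of interleukin (-0.66, adjusted p = 0.376). Complement and coagulation genes had 2 lower of 20, C9 (-0.34) and C8b (-0.22). In the interferon list, 3 were lower and 2 higher of 22, and Stat2 read 8.97, 8.56, 8.62, 8.71 and 8.96 in hyperG livers and 9.14, 9.40, 9.34, 9.64 and 9.52 in standardG livers, without overlap, while Ifit2, an interferon-induced gene, differed by 0.83 (adjusted p = 0.403). Hamp, the gene of the iron hormone hepcidin, split within both groups, with 10.33, 4.87, 10.20, 11.37 and 8.61 in hyperG livers and 2.94, 4.52, 5.38, 12.08 and 3.52 in standardG livers (3.39 ± 1.31, adjusted p = 0.491). High values were those of 4 hyperG livers and of the standardG array L57S. Slc39a4, a zinc importer, differed by -0.66 (adjusted p = 0.538), and 1 of 11 genes of its list was higher and 1 lower.

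Among secreted hepatic proteins and the growth axis 0 genes were called. Alb, the gene of albumin, averaged 13.28 ± 0.06 in hyperG livers and 13.28 ± 0.08 in standardG livers (adjusted p = 0.996). Afp, the fetal albumin homologue, differed by 0.62 (adjusted p = 0.481) and Pltp, the phospholipid transfer protein, by -0.54 (adjusted p = 0.488), and 1 of 23 genes of their list was higher and 2 lower. Igf1 averaged 11.99 ± 0.10 in hyperG livers and 11.96 ± 0.07 in standardG livers (adjusted p = 0.974), and Igfbp1, its binding protein, 12.15 ± 0.18 and 12.13 ± 0.27 in the same order of groups (adjusted p = 0.995). Prlr, the prolactin receptor, read 11.41, 10.56, 11.35, 11.71 and 11.46 in hyperG livers and 11.05, 10.39, 11.11, 10.09 and 11.05 in standardG livers (0.56, adjusted p = 0.484), and Socs2, a feedback inhibitor of growth hormone signalling, differed by 0.91 (adjusted p = 0.651). Oxidative phosphorylation genes had 1 lower of 30 (median -0.01), Sdha (-0.25), with Cox4i1 at 0.17, and among ribosomal genes Rps9 and Rps3 were at 0.25 and 0.21.

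Whether the pregnant liver responded differently from the lactating liver was tested as the difference of both effects in the same fit, which shares no array between the stages. In lactating liver 126 probe sets were called (0.406%), 29 higher and 97 lower. The difference of effects was called for 39 probe sets (0.126%), 23 above 0 and 16 below, and for 8 of the 32 called in pregnancy. The effect in pregnancy is part of this difference, so the selection of the 32 favours such calls among them. Of those 32, 18 had the same sign in lactation, and the share over all probe sets was not counted. An unadjusted p under 0.05 in lactation was reached by 11 of them, beside 933 higher and 1114 lower of all 14217 genes. In both stages 3 were called. These were Rasd2, lower in both (-1.66 in lactation, adjusted p = 0.0409), a probe set without a gene symbol, higher in both (1.36 in pregnancy and 1.51 in lactation), and Gls2, with opposite signs.

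Gls2 fell in pregnancy and rose by 0.79 ± 0.15 in lactation (adjusted p = 0.02), where it averaged 11.33 ± 0.34 in hyperG livers and 10.54 ± 0.10 in standardG livers. The difference of effects was -1.74 ± 0.21 (adjusted p = 0.00185), and its standardG levels were 10.59 in pregnancy and 10.54 in lactation. Of 24 amino acid genes 5 had a called difference, against 30 of 14217 genes, each of them below 0: Gls2, Got1 (-2.10 ± 0.37, adjusted p = 0.031), Ass1 (-1.98 ± 0.31, adjusted p = 0.0125), Sds (-4.84 ± 0.81, adjusted p = 0.0258) and Bhmt (-2.16 ± 0.38, adjusted p = 0.0301). The list's median was -0.25 in pregnant and 0.34 in lactating liver. For Sds the lactating livers averaged 9.03 ± 0.52 in hyperG and 6.94 ± 1.22 in standardG. Fos had the same form, with 6.57 ± 0.91 in lactating hyperG livers and 5.17 ± 0.85 in lactating standardG livers and a difference of effects of -3.28 ± 0.59 (adjusted p = 0.0322).

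**Figure D4:**
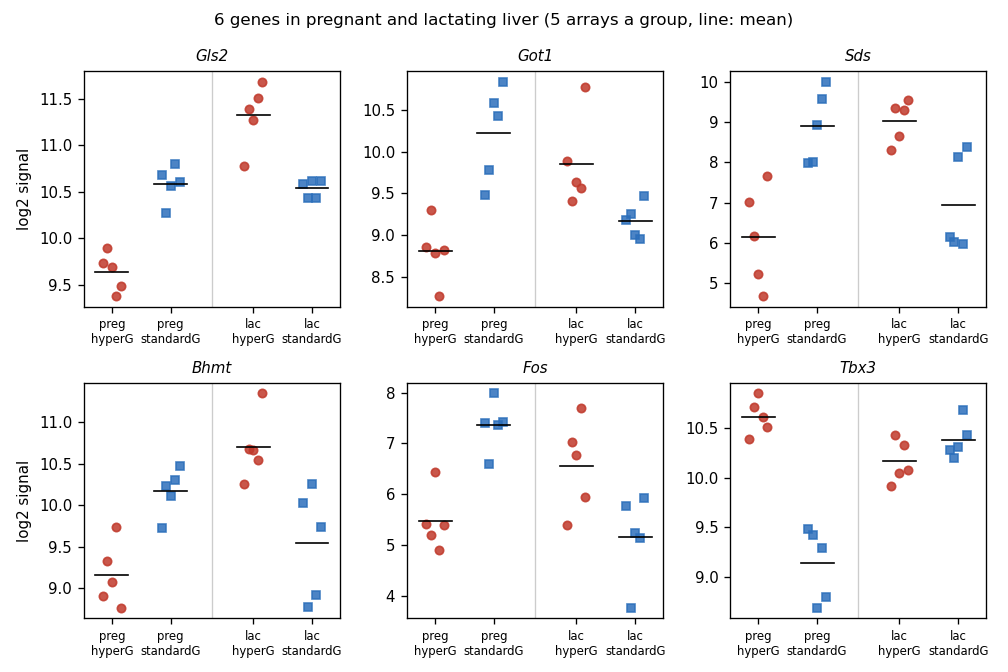
Log2 signal (y axis, own scale in each panel) of 6 genes in pregnant (preg) and lactating (lac) liver, with 5 hyperG arrays (circles) left of 5 standardG arrays (squares) in each stage; lines are group means. Gls2, Got1, Sds, Bhmt and Fos are lower in hyperG in pregnancy and higher in lactation on average, and Tbx3 differs by 1.48 in pregnancy and by -0.22 in lactation.

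Tbx3, Sstr1 and Epha4 rose in pregnancy and had negative values in lactation. The lactating livers averaged 10.16 ± 0.21 in hyperG and 10.38 ± 0.19 in standardG for Tbx3, beside 10.62 ± 0.18 in pregnant hyperG livers and 9.14 ± 0.37 in pregnant standardG livers, the lowest of the 4 group means. The difference of effects was 1.69 ± 0.22 for Tbx3 (adjusted p = 0.00424), 2.97 ± 0.43 for Sstr1 (adjusted p = 0.0061) and 2.83 ± 0.40 for Epha4 (adjusted p = 0.00527). These calls and those of Gls2 and Lifr held without any 1 of the 20 liver arrays. Lifr, the receptor of leukemia inhibitory factor, differed mainly through lactation: 0.41 ± 0.33 in pregnancy (adjusted p = 0.828) and -2.94 ± 0.33 in lactation (adjusted p = 2.52e-04), a difference of 3.35 ± 0.47 (adjusted p = 0.00466). Fer1l5, a ferlin, differed likewise (2.98 ± 0.54, adjusted p = 0.0325), and Glt1d1, a glycosyltransferase, in the other direction (-2.25 ± 0.41, adjusted p = 0.0338).

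For the lists of lipid synthesis the lower medians were those of lactation. Scd2 and Lpin2, called in pregnancy and outside these lists, had their lower differences between hyperG and standardG in pregnancy. They differed by -1.72 and -0.94 there and by -0.66 and 0.054 in lactation. Their differences of effects were not called (adjusted p = 0.374 and 0.142). The fatty acid synthesis list had a median of -0.26 in pregnant and -0.92 in lactating liver, and cholesterol synthesis 0.00 and -0.98, with 9 of 18 genes called in lactation and 0 in pregnancy. The difference was called for 2 of the 20 fatty acid genes, Fasn (2.57 ± 0.49, adjusted p = 0.0402) and Thrsp (1.00 ± 0.19, adjusted p = 0.0402), and for 0 of 18 cholesterol genes. For clock genes the median was -0.55 in pregnancy and -0.06 in lactation, and for clock output -0.90 and -0.14, and the difference was called for 0 genes of either list. Bhlhe41 had -2.02 ± 0.55 in lactation (adjusted p = 0.121), and the difference of effects was -0.74 (adjusted p = 0.73).

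**Figure D5:**
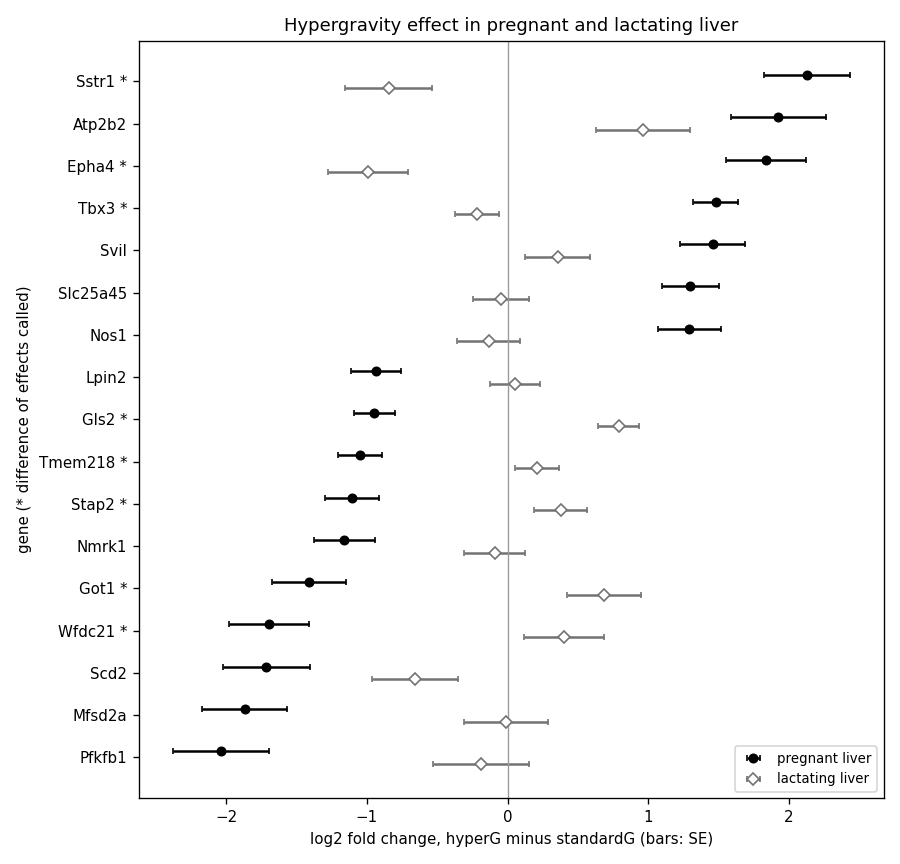
Log2 fold change, hyperG minus standardG (x axis, bars are SE), of the 17 named called genes in pregnant liver (filled circles) and lactating liver (open diamonds). Asterisks mark the 8 genes with a called difference of effects; the lactating values lie between -0.99 (Epha4) and 0.96 (Atp2b2).

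Against other tissues of the same pregnant rats, few differences of effect were called. In the fit of 30 pregnant arrays, 7 probe sets (0.0226%) differed between the effects in liver and mammary gland, 5 above 0 and 2 below. Sstr1 (1.80 ± 0.32, adjusted p = 0.023), Nos1 (1.53 ± 0.25, adjusted p = 0.0177) and Acsm2 (2.49 ± 0.41, adjusted p = 0.0177) lay above, and Pfkfb1 (-2.65 ± 0.46, adjusted p = 0.023) below. Cldn1, on the probe set called in liver, also lay above (3.15, adjusted p = 0.023). In mammary gland the genes Sstr1, Nos1, Acsm2 and Pfkfb1 had effects of 0.33, -0.23, -0.30 and 0.61. The mammary arrays M56H and M52S carried hepatocyte markers 5.75 and 2.76 above the median of the 10 mammary arrays, and without them 0 probe sets were called by limma and 1967 passed an unadjusted p of 0.05. Without the liver array L50H 0 were called as well. With the rat as a block the call for Nos1 was lost. Between liver and adipose tissue 4 probe sets differed (0.0129%), 2 above 0 and 2 below: Cldn1 (3.36, adjusted p = 0.0115), Sstr1 (2.19 ± 0.32, adjusted p = 0.00609), Mfsd2a (-1.80 ± 0.29, adjusted p = 0.0115) and Rsph9, a radial spoke protein of cilia (-1.11 ± 0.19, adjusted p = 0.0213). In adipose tissue the effects on Sstr1, Mfsd2a and Rsph9 were -0.063, -0.071 and 0.24. With the rat as a block the call for Rsph9 was lost. Adipose RNA was extracted with another kit than liver RNA, so kit and tissue cannot be told apart. The adipose array A48S carried muscle markers, and 5 probe sets were called without it. The median effect on clock output genes was -0.25 in mammary gland and -0.20 in adipose tissue, beside -0.90 in liver. Single clock and clock output genes varied. Hlf differed by -0.92 in mammary gland and -0.89 in adipose tissue, beside -1.02 in liver, and Dbp by -1.17 and -0.57, beside -1.55. Per1 differed by -0.95 and -0.097, beside -0.71, while Nr1d1 differed by 0.019 and 0.43, beside -0.82. For these genes the difference of effects was not called against either tissue.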

How the data were processed

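Total RNA was isolated with TRIzol and amplified and labelled with the NuGEN Ovation system, per the labels' protocols, and hybridised to oligonucleotide arrays; adipose RNA was isolated with RNeasy Lipid. The authors deposited log2 signals from RMA, per the submitters' processing notes; its version was not given in the sources used here, nor were scan dates. RMA draws array distributions towards one another, so a shift of most genes at once would not show. The deposited distributions were not identical. Upper quartiles ran from 6.93 to 7.10 in the 10 pregnant livers, while the lactating hyperG array L212H had 6.53. Without L212H 38 probe sets were called in pregnant liver, and 37 for the difference from lactating liver. Differences were tested here with limma 3.58.1 in R 4.3.3 (lmFit, eBayes, group means) over 20 liver arrays, or 30 pregnant arrays for tissue differences, two-sided, with Benjamini-Hochberg adjustment over 31042 probe sets. No probe set was filtered out, and there were no detection calls. Arrays have no read depth, and 5 arrays a group limit the precision. The fit was tested on simulated arrays with known changes and independent noise. It called 72 of 100 changes of 1 and 99 of 100 changes of 2, with 8 false calls.

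Of 31042 probe sets 20826 had 1 gene symbol in the platform annotation, 436 several and 9780 none, and the brightest single-symbol probe set stands for its gene. For Per2, Cpt1a, Pdk4, Srebf2, Stard4, Alb and Igf1, a dimmer probe set had the opposite sign in pregnant liver and was not called. RefSeq (GRCr8) gave positions and promoters. Up to 15 called genes without overlap were named in each direction (filled to 6 by p), up to 4 called or else 2 uncalled members of each list, up to 4 genes in each direction for each difference, and a fixed set of liver and clock genes, of which some are not reported here. The genes, lists and tests were chosen with earlier results of these data known. Rat codes pair tissues, and same-rat deviations from the group means correlated at -0.047 to 0.23 between liver and mammary gland and at 0.0069 to 0.32 between liver and adipose tissue. Alternatives changed array weights, trend and robust fitting, the filter, centring, quantile normalization, probe set choice, the arrays fitted, single arrays and the rat block.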

Additional observations from a re-analysis of the deposited data

Results flagged for a closer look

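In 5 of 166 groups of 5 arrays tested, 1 array lay far from the other 4, and chance flags about 1 in 20 such groups. They were Mfsd2a on the standardG array L42S (7.83, others 8.73 to 9.07), Thrsp on the hyperG array L50H (11.50, others 12.02 to 12.09), Hlf on the hyperG array L59H (10.57, others 10.05 to 10.12), Hamp on the standardG array L57S (12.08, others 2.94 to 5.38) and Nr1d1 on the standardG array L57S (6.54, others 7.14 to 7.34).

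The effect of hypergravity differed between pregnant and lactating liver by a called difference in 17 named genes. Above 0 were Lifr (3.35), Fer1l5 (2.98), Sstr1 (2.97), Epha4 (2.83), Fasn (2.57), Tbx3 (1.69) and Thrsp (1.00). Below 0 were Sds (-4.84), Fos (-3.28), Glt1d1 (-2.25), Bhmt (-2.16), Got1 (-2.10), Wfdc21 (-2.09), Gls2 (-1.74), Rsph9 (-1.65), Stap2 (-1.48) and Tmem218 (-1.26). Leaving out 1 of the 20 liver arrays never ended the call for Lifr, Sstr1, Epha4, Tbx3 and Gls2. It ended the call of Fasn in 17 of 20 cases, of Thrsp in 15 and of Wfdc21 in 14, and the remaining 9 genes lost it in 3 to 12 cases.

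Between pregnant liver and mammary gland the effect differed for Pfkfb1 (-2.65), Acsm2 (2.49), Sstr1 (1.80) and Nos1 (1.53), and between pregnant liver and adipose tissue for Sstr1 (2.19), Mfsd2a (-1.80) and Rsph9 (-1.11). Without the hyperG liver array L50H the calls against mammary gland ended for all 4 genes, and fitting only the 20 arrays of the 2 tissues ended the calls against mammary gland for Sstr1, Nos1 and Acsm2 and all 3 calls against adipose tissue.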

How the results depend on the processing

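In pregnant liver 32 probe sets were called; array weights gave 107, trend and robust fitting 53, and an adjusted p under 0.1, chosen after seeing the data, 70, while the other settings gave 24 to 47. Leaving out 1 array gave 6 to 51. Fitting only the 10 pregnant livers gave 47, with 23 of the 32 among them. Got1 and Stap2 kept their calls in 6, and Lpin2 in 5, of the 7 settings that leave out no single array. The difference from lactating liver (39) was 79 with array weights, 67 with trend and robust fitting, 66 with the filter on dim probe sets, and 10 to 119 with 1 array left out (119 without L210H). The difference from mammary gland (7) was 28 with array weights, 2 with the filter, 2 with only the 20 arrays compared, 0 without the mammary arrays carrying hepatocyte markers (limma, 1967 at an unadjusted p under 0.05), and 0 to 11 with 1 array left out (0 without L50H, 1032 unadjusted). The difference from adipose tissue (4) was 8 with array weights, 9 with trend and robust fitting, 1 with the filter, 8 after centring, 0 with only the arrays compared (1312 unadjusted) and 3 to 10 with 1 array left out. With the rat as a replicate block, 5 probe sets differed from mammary gland and 3 from adipose tissue, without Nos1 and Rsph9. The called genes kept their direction in all of 457 repeats and their call in 397. Genes not called became called in 46 of 1773 repeats. Among named genes, signs turned for 5 that were not called: Alb (0.019 after centring, -0.030 to 0.016 with 1 array left out), Igfbp1 (-0.029 with array weights, -0.080 to 0.10), Cyp7a1 (-0.10 to 0.077), Srebf1 (-0.33 to 0.15) and Igf1 (-0.012 to 0.055). List medians moved by more than the spread between replicates in 14 of 420 repeats. The causes were not tested. Dim genes near the array median are limited by background.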

Other observations

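Of 30 genes with a called difference between pregnant and lactating liver, 28 had opposite signs in the stages, 8 were called in pregnancy and 11 in lactation. A large difference of effects favours opposite signs, so the 28 follow in part from how the 30 were selected. The genes described here lie outside the naming rule and were chosen after their values were seen. Gnmt, which uses glycine as a methyl acceptor, averaged 10.33 ± 0.28 in pregnant hyperG livers and 10.95 ± 0.22 in pregnant standardG livers, and 12.08 ± 0.53 and 11.07 ± 0.28 in the lactating hyperG and standardG livers (SD, n = 5 each), a difference of effects of -1.63 ± 0.30 (SE). Suox, the sulfite oxidase, had a difference of -1.31 ± 0.23, Adss1, an adenylosuccinate synthase, -1.43 ± 0.26, and Adh4, an alcohol dehydrogenase, -2.08 ± 0.40. Psat1, the aminotransferase of serine synthesis, had the opposite direction, with 8.56 ± 0.34 in pregnant hyperG livers and 7.35 ± 0.55 in pregnant standardG livers, against 7.19 ± 0.46 in lactating hyperG and 8.19 ± 0.64 in lactating standardG livers (2.22 ± 0.42). Paqr9 (2.35 ± 0.36), Dab1 (2.33 ± 0.44), Morc4 (1.96 ± 0.38), Plekhb1 (1.63 ± 0.32) and Stambpl1 (1.61 ± 0.27) also lay above 0.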
